A study of Mus musculus with 16 samples.

Results

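The comparison set every group derived from a Wdr5 knockout clone of mouse embryonic stem cells against the wild type cells, and asked which genes, outside chromosome 8, stood on the same side of wild type in all 3 clone groups. All 16 samples of the series enter it, 4 of wild type and 12 of the clone. Both genotypes come from a line with GFP knocked in at Rx (Rax), and all samples are embryoid bodies at day 6 of SFEBq differentiation, a serum-free floating culture that drives aggregates of stem cells towards forebrain and retinal tissue, here with 5% KSR in GMEM medium and 2% Matrigel from day 1. Wild type (WT) received no agent named in the labels. The groups of the clone were the knockout (KO) and 2 groups in which doxycycline (Dox) was added to induce human WDR5, at T12h (the T12h group) or at T48h (the T48h group). The series title names a single clone, #3, so the 3 clone groups share whatever else sets that clone apart from WT, and a difference they share cannot be told apart from a lasting effect of the lost gene. Dox was given to T12h and T48h and not to KO, so the agent itself is not common to the clone groups.

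WDR5 is a WD40-repeat protein that holds together the COMPASS/MLL complexes, which methylate histone H3 at lysine 4 around active promoters. A clone grown from a single cell also keeps heritable features of that cell, such as its imprints and its chromosome complement. The forebrain and retina that SFEBq cultures form are patterned by homeobox, zinc finger and DM-domain transcription factors together with WNT, BMP and FGF signals.

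The labels give 2 biological duplicates per group, each sequenced in 2 technical runs, and the technical columns were summed to 2 WT and 6 clone libraries (a and b in each group, with no order). They held 32476669 to 65687434 estimated fragment counts in named genes. Nothing says that duplicates came from separate cultures, so the p-values cover no more than the scatter of these libraries, part of which may be technical. Wdr5 itself stood at 186 and 187 CPM (counts divided by the scaled library size of edgeR) in WT, 32.5 and 28.4 in KO, 329 and 337 in T12h, and 280 and 294 in T48h. It was thus below WT in KO and above it in both Dox groups, where reads of the human gene that align to the mouse one would be counted too. The neural progenitor markers of the culture were present. Their 27 loci, 1 of them on chromosome 8, summed to 2646 and 2570 CPM in WT and 2680 and 2776 in T12h. The same sum was 734 and 696 in KO, and 744 and 748 in T48h. By this sum T12h was close to WT, and KO and T48h were far below it. In bulk RNA, fewer cells of a type and less RNA per cell cannot be told apart.

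The 3 comparisons differed widely in how many genes they called. Of 15278 tested loci outside chromosome 8, 30.6% were higher and 33.2% lower in KO than in WT at an adjusted p under 0.05 in edgeR. The shares were 22.4% and 24% in T48h, and 5.34% and 6.38% in T12h. All 3 comparisons use the same 2 WT libraries, so their calls are not independent, and a shift of WT alone would appear in each of them. The level averaged over the clone groups with equal weight was higher than WT for 2727 loci (17.8%) and lower for 3638 (23.8%). Most of these (6003) were not called in all 3 groups. When the 6 clone libraries were instead treated as replicates of 1 group, edgeR called 0 loci in either direction. The common coefficient of variation was 66.1% in that fit, against 12.6% with 4 groups. At an unadjusted p under 0.05 that fit had 382 loci higher and 261 lower. Such a cut passes 0.05 of loci when nothing differs, and these counts are not above that rate. The smallest adjusted p of edgeR in that fit was 0.581. DESeq2 with the same 2 groups called 113 higher and 43 lower.

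Called in the same direction in all 3 comparisons were 202 loci higher (1.32%) and 160 lower (1.05%). With upper-quartile scaling the balance turned, to 132 higher and 220 lower. At least 2-fold in each comparison, with the 6 clone libraries all outside the range of the 2 WT libraries, were 20 higher (0.131%) and 41 lower (0.268%). These 61 loci are described below as shared 2-fold genes. A locus named Stxbp3b, which had the fold in each group, was left out because 1 KO library overlapped WT at 0. Within them, 50 differed among KO, T12h and T48h by the F test of edgeR (adjusted p under 0.05), so most shared a direction and not a size. T12h had the smallest shift for 42 of the 61, KO for 10 and T48h for 9. Only 4 higher (0.0262%) and 6 lower (0.0393%) genes had their 3 log2 fold changes within 1 unit of each other, and they are called even here. These fold changes and p-values chose the genes, so for the members they are a description. The limit of 1 unit applies to the estimates. T48h minus T12h was -0.98 (95% interval -2.58 to 0.63) for Pou3f3, -0.48 (-2.03 to 1.06) for Emx2os and -0.22 (-0.55 to 0.11) for Spry1. Evenness was thus well measured for Spry1 and not for Pou3f3 or Emx2os. For Fam221b, with 0 counts in all clone groups, it was not measured. For Peg13, T12h minus KO was 0.746 (0.501 to 0.992) and T48h minus KO 0.691 (0.445 to 0.937). Its shifts thus differed in size, although the estimates stayed within the limit. Without even genes that differed among the clone groups by the F test of edgeR, 3 higher and 6 lower remained. The number of shared calls depended on single libraries: without WT library a it was 75 higher and 66 lower, without WT b 101 and 108, without T12h a 98 and 88, and without T12h b 90 and 91. The 2-fold counts moved less, but their members changed. Without WT a they were 19 higher and 23 lower, of which 14 and 22 were among the 20 and 41. Without T12h b they were 14 higher and 33 lower, of which 11 and 30 were.

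**Figure D1:**
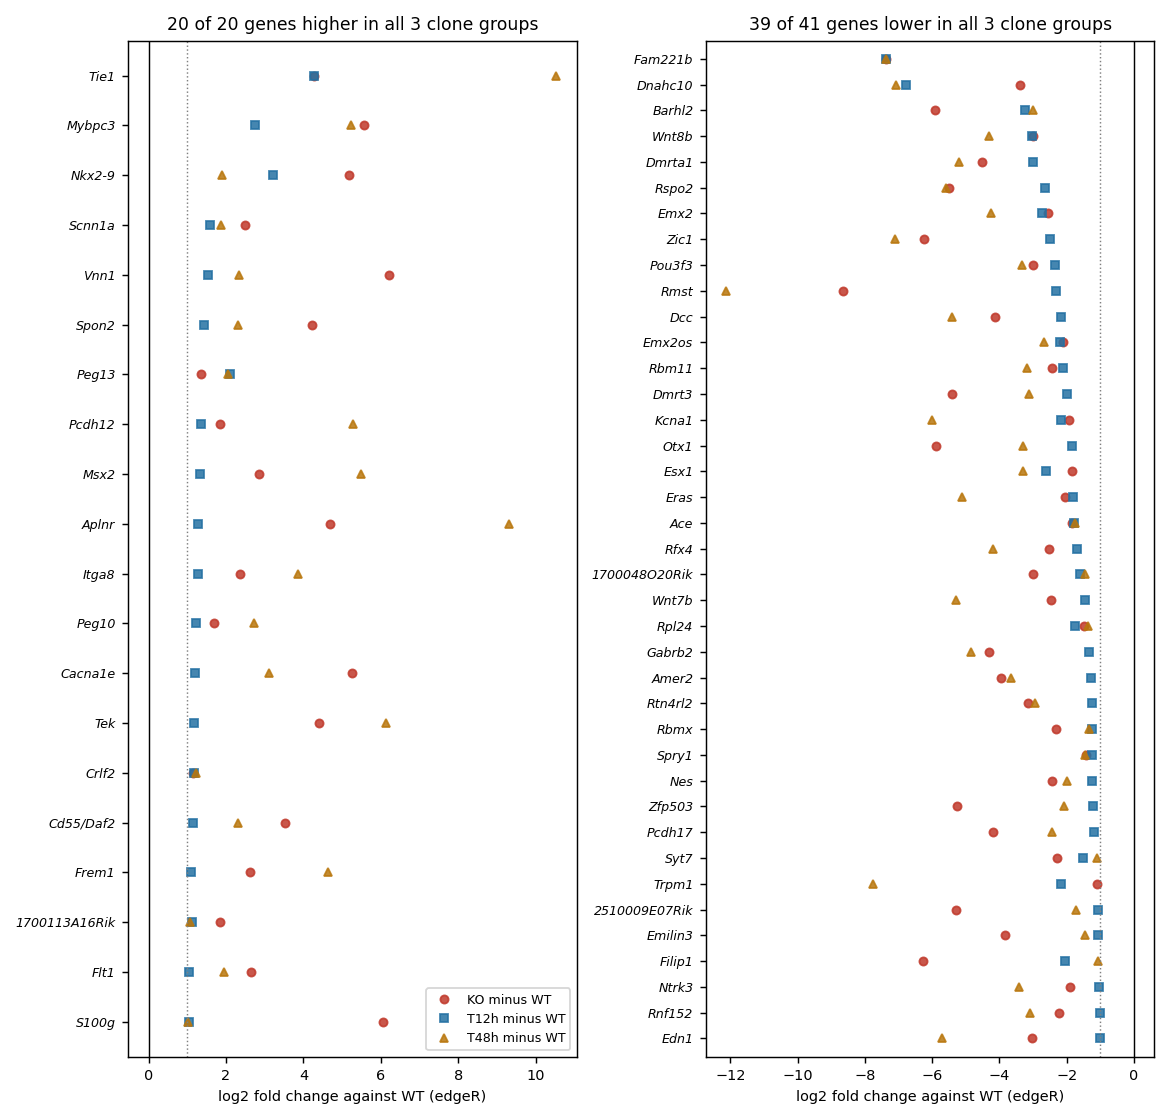
Log2 fold change against WT (horizontal axis, edgeR) for the 20 higher (left) and 39 of the 41 lower (right) shared 2-fold genes, with a circle for KO, a square for T12h and a triangle for T48h, sorted by the smallest of the 3 shifts; the dotted line is a 2-fold change. The T12h square lies nearest to 0 for most of the genes, and the 3 symbols fall together for few genes, such as Crlf2, Ace and Spry1. The place of Fam221b, which had no counts in the clone, depends on the prior count of the fit.

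The 2 WT libraries were not equivalent for the genes that fell. For 36 of the 41 lower genes (87.8%) WT a stood above WT b, with a median log2 difference of 0.18, against 49% and a median of 0 over all tested loci. Among the 20 higher genes 10 had WT a above WT b. The loss of calls without WT a is to be read beside these values, and whether the cells behind the 2 WT libraries differed in makeup was not tested.

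The even genes come first. They were chosen for alike shifts of at least 2-fold in the 3 clone groups and for clone libraries all outside the WT range. Ace, which encodes angiotensin-converting enzyme, stood at 8.18 and 5.58 CPM in WT (chromosome 11, 105967945 to 105989964 on mm10). In the clone it lay at 2.01 and 1.84 in KO, 2.04 and 1.98 in T12h, and 2.1 and 2.01 in T48h. All 6 clone libraries thus fell in a narrow band well under both WT libraries. The log2 fold changes were -1.84 ± 0.33, -1.78 ± 0.32 and -1.74 ± 0.33 (± SE, edgeR adjusted p = 0.00026, 0.00263 and 0.000648). The call in all 3 comparisons was lost without WT a, 1 of 21 alternatives.

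Spry1, an inhibitor of receptor tyrosine kinase signalling that FGF itself induces, had the smallest errors of the even genes after Peg13 (chromosome 3, 37639872 to 37644599). Its level was 34.5 and 29.9 CPM in WT, 11.2 and 12.9 in KO, 14.2 and 12.9 in T12h, and 12 and 11.3 in T48h. No clone library came near either WT library. The log2 fold changes were -1.42 ± 0.15, -1.25 ± 0.15 and -1.47 ± 0.15 (edgeR adjusted p = 2.96e-06, 0.000154 and 3.94e-06).

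Crlf2, a subunit of the receptor for thymic stromal lymphopoietin, was the closest counterpart among the higher genes (chromosome 5, 109554709 to 109558993). It rose from 2.64 and 3.12 CPM in WT to 7.79 and 4.96 in KO, 6.5 and 6.48 in T12h, and 7.46 and 6.03 in T48h. The shifts were 1.16 ± 0.27, 1.17 ± 0.27 and 1.23 ± 0.28 (edgeR adjusted p = 0.00238, 0.0122 and 0.00241). The KO libraries spread more than those of the other clone groups, and the call was lost without WT a, T12h a or T12h b.

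Promoters of Ace, Spry1 and Crlf2 are shown because their levels were alike in groups that differed in Wdr5 and in tissue. That of Emx2 is shown because it spans the gap to a neighbouring locus that fell with it, Emx2os, and reaches into that locus. Each run is the 250 bases before the RefSeq start on GRCm38.p6, on the strand of the gene, with CG dinucleotides in capitals. The median over the 10835 tested genes with an entry was 15 CG in the same window.
Ace (chr11:105967698-105967947, plus strand, 19 CG): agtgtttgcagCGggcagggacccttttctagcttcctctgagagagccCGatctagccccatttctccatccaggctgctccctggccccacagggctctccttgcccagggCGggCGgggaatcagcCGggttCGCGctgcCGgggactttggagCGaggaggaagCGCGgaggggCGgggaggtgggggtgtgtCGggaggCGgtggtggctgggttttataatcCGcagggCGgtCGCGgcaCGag
Spry1 (chr3:37639697-37639946, plus strand, 23 CG): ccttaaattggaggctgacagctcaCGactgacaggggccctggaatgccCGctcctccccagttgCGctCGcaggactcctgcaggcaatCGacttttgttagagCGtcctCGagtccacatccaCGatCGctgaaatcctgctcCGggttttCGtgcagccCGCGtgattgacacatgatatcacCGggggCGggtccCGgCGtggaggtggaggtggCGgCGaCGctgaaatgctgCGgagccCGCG
Crlf2 (chr5:109558994-109559243, minus strand, 24 CG): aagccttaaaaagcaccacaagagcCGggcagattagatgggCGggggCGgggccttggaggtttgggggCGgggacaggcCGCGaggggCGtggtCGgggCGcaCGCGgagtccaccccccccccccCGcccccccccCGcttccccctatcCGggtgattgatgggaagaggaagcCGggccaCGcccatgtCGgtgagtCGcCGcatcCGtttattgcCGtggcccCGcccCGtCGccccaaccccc
Emx2 (chr19:59458440-59458689, plus strand, 24 CG): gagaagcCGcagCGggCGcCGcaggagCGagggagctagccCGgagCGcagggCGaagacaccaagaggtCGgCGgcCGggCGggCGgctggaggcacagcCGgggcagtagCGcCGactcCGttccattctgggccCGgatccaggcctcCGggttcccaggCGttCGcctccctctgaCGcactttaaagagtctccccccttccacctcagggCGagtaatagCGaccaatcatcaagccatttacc
A second RefSeq start of Ace had 1 CG in its window (chr11:105974939-105975188). The windows printed were chosen for their genes and do not stand for the sets. The medians were 9.5 CG over the 12 shared 2-fold higher genes with an entry and 11.5 over the 28 lower ones. Entries were found for 40 of the 61 genes and for 73.1% of tested genes, and with so many missing the composition of the sets was not compared further.

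**Figure D2:**
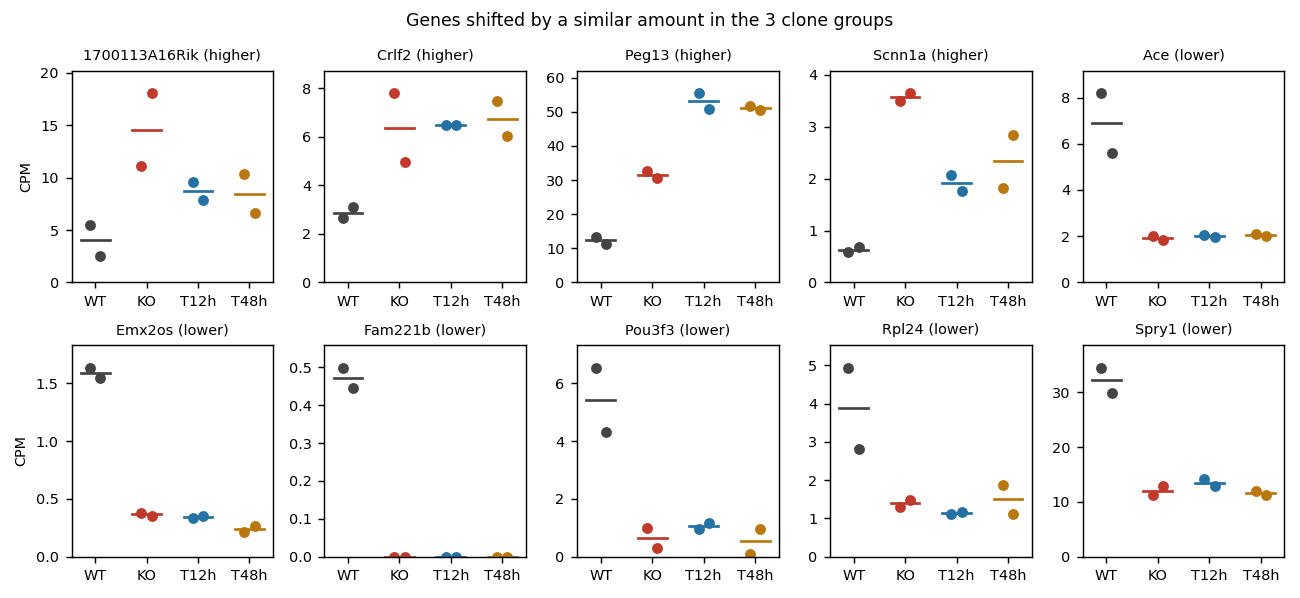
CPM (vertical axis, from 0) in each library for the 10 even genes; points are the 2 libraries of a group and bars their mean, in grey for WT, red for KO, blue for T12h and ochre for T48h. All 6 clone libraries lie on one side of both WT libraries in each panel because the genes were chosen so. Fam221b is at 0 in all 6.

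Among the shared 2-fold genes, Fam221b was the one with counts in WT and none in any clone library. It had 33 counts over the 2 WT libraries (0.499 and 0.445 CPM) and 0 in KO, T12h and T48h. Against a floor of 3 counts over all clone libraries, WT was at least 44.5-fold higher, and against the floor of each group at least 16.6-fold (KO), 15.7-fold (T12h) and 12.2-fold (T48h) higher. These bounds cover counting error only. The gene lies on chromosome 4, from 43659622 to 43668859, and its low WT level makes it a call that rests on few fragments (edgeR adjusted p = 0.00842, 0.0364 and 0.016).

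Pou3f3, a POU-domain transcription factor of the forebrain, fell from 6.55 and 4.3 CPM to 0.109 to 1.17 over the 6 clone libraries (log2 fold changes -3.01 ± 0.73, -2.35 ± 0.71 and -3.32 ± 0.76). Its largest adjusted p in edgeR was 0.0441, and the call was lost in 7 of 21 alternatives, among them those without either WT library or either T12h library. The locus named Rpl24, a protein of the large ribosomal subunit, went from 4.94 and 2.82 CPM to 1.13 to 1.88 in the clone libraries, with log2 fold changes of -1.48, -1.76 and -1.37. So low a level for a ribosomal protein gene, and the many near-identical copies such genes have, make its assignment uncertain. Scnn1a, the alpha subunit of the epithelial sodium channel, stood at 0.582 and 0.683 CPM in WT and at 1.76 to 3.64 in the clone libraries, and 1700113A16Rik at 5.49 and 2.55 in WT and at 6.64 to 18.1.

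Imprinted genes supplied the even gene with the firmest rise. Peg13, a noncoding RNA transcribed from the paternal chromosome, stood at 13.4 and 11.3 CPM in WT, 32.6 and 30.6 in KO, 55.4 and 50.7 in T12h, and 51.8 and 50.4 in T48h. Its log2 fold changes were 1.36 ± 0.12, 2.1 ± 0.12 and 2.05 ± 0.12 (edgeR adjusted p = 4.36e-07, 7.84e-07 and 1.22e-08). Unlike most shared genes, Peg13 was shifted least in KO. It was even only in that its 3 estimates lay within 1 unit. The clone groups differed for this gene by the F test of edgeR (adjusted p = 8.47e-05). The file gives Peg13 the span of the locus group it shares with Trappc9 on chromosome 15, and without a known strand setting reads of the overlapping genes cannot be told apart. Trappc9 itself had log2 fold changes of -1.26, 0.09 and -0.61. These values rest on the same division of reads between the overlapping genes, so the source of the Peg13 reads was not tested.

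Peg10, a retrotransposon-derived gene also read from the paternal copy and known for its role in the placenta, was at 820 and 885 CPM in WT. It reached 2672 and 2826 in KO, 1921 and 2057 in T12h, and 5781 and 5447 in T48h. The log2 fold changes were 1.69 ± 0.07, 1.22 ± 0.07 and 2.72 ± 0.07 (edgeR adjusted p = 3.48e-10, 7.84e-07 and 6.81e-12), the most precise of the shared 2-fold genes. The authors' software marked Peg10 as a failed estimate in 4 of its 16 columns. The scaled counts of technical partners differed by at most 2.68%. Partners are runs of the same duplicate, so their likeness cannot tell whether the flagged estimates are right.

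Imprinted genes were called in both directions. Of 29 considered genes (tested and outside chromosome 8) expressed from the paternal copy, 3 were called higher in all 3 comparisons and 1 lower, where 1.32% and 1.05% of all tested loci were. Besides Peg10 and Peg13, Peg3, a zinc finger gene, had log2 fold changes of 1.03, 0.34 and 3.37. Igf2, a fetal growth factor, fell from 127 and 101 CPM to 24.5 and 26.8 in KO, 38.6 and 34.5 in T12h, and 63.6 and 74.8 in T48h. Of 24 genes expressed from the maternal copy, none was higher and 2 were lower in all 3: Igf2r, the receptor that clears IGF2 (-0.64, -0.52 and -2.31), and Ppp1r9a, a neuronal actin-binding protein (-2.93, -0.71 and -2.22). The medians of the averaged shift were 0.03 for the paternal and 0.21 for the maternal list, against -0.05 over all tested loci.

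Several of the lower genes encode transcription factors of the forebrain. Emx2, a homeobox gene of the dorsal forebrain, stood at 43.3 and 29.1 CPM in WT, 6.02 and 6.31 in KO, 4.33 and 6.57 in T12h, and 1.44 and 2.35 in T48h. In T12h the gene was thus as low as in KO, while the summed neural progenitor markers of T12h were close to the WT level. That sum hides shifts in both directions. Of the 26 considered loci of the list, 9 were lower and 5 higher in T12h, against 6.38% and 5.34% of all tested loci. The part of a changed tissue makeup in the fall of Emx2 was not tested. Its log2 fold changes were -2.55 ± 0.26, -2.74 ± 0.27 and -4.24 ± 0.30 (edgeR adjusted p = 1.91e-06, 3.65e-05 and 6.27e-08). The neighbouring locus Emx2os, a noncoding transcript of the opposite strand, lies 54 bases before Emx2, with its near edge inside the window printed above. Emx2os fell from 1.64 and 1.54 CPM to between 0.218 and 0.381 in the clone libraries (-2.11, -2.21 and -2.69). Emx2os and Emx2 were the one pair of adjacent tested loci that were both shared 2-fold genes.

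Zic1, a zinc finger factor of the dorsal neural tube, fell from 49.7 and 34 CPM in WT to 0.41 and 0.755 in KO, 7.79 and 6.85 in T12h, and 0.463 and 0.147 in T48h. Otx1, an orthodenticle homeobox gene of the anterior brain, had 26.9 and 20.9 in WT, 0.513 and 0.243 in KO, 5.74 and 7.58 in T12h, and 2.72 and 2.16 in T48h. In both genes T12h lay between WT and the other clone groups, with log2 fold changes of -2.51 ± 0.27 (Zic1) and -1.85 ± 0.26 (Otx1).

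Both DM-domain factors of the embryonic cortex in the set, Dmrta1 and Dmrt3, fell in all 3 clone groups and least in T12h. Dmrta1 went from 18.5 and 16.1 CPM in WT to 0.674 and 0.836 in KO, 1.56 and 2.78 in T12h, and 0.572 and 0.368 in T48h. Dmrt3 went from 23.8 and 21.3 to 0.469 and 0.621, 6.39 and 4.89, and 2.81 and 2.43. Dmrta1 was thus lowest in T48h and Dmrt3 in KO. The T12h shifts were -3.00 ± 0.32 and -1.999 ± 0.22 (edgeR adjusted p = 7.05e-05 and 8.01e-05).

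Of 16 considered eye field and retinal progenitor genes (tested and outside chromosome 8), 15 were lower in KO and 13 in T48h. The shares over all tested loci were 33.2% and 24%. T12h had 3 lower and 5 higher, against 6.38% and 5.34%, and 2 were called lower in all 3, against 1.05%. In T12h the log2 fold changes were 0.17 for Rax, 0.34 for Six3 and -0.25 for Pax6, with edgeR adjusted p = 0.25, 0.0542 and 0.144. Otx2, a regulator of the anterior head and retinal pigment epithelium, was called lower in all 3, at 266 and 239 CPM in WT and 138 and 134 in T12h (-0.90). The neural progenitor list had 26 considered loci, of which 6 were lower and 1 higher in all 3 comparisons, against 1.05% and 1.32% of all tested loci, 4 of the lower ones by at least 2-fold (Emx2, Zic1, Pou3f3 and Nes). Its T12h median was -0.19, against -0.02 over all tested loci, while its KO and T48h medians were -2.99 and -3.89. Nes, the intermediate filament of neural progenitors, stood at 95.7 and 64.6 CPM in WT and 29.9 and 38.1 in T12h (-1.24 ± 0.19), with 13.3 and 16.2 in KO and 17.2 and 23 in T48h. The name Nes is on more than 1 locus of the table, and these values are of the locus on chromosome 3 from 87971093 to 87980451. The 24 names of the neural progenitor list gave 27 tested loci, so some names enter its counts and sums more than once. The single gene of this list that rose was Ncam1, a neural cell adhesion molecule (0.72, 0.55 and 1.504).

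The shared 2-fold lower genes included some that encode secreted proteins. Wnt8b, a WNT ligand of the medial cortex, stood at 45.8 and 31 CPM in WT, 5.68 and 3.78 in KO, 5.2 and 4.14 in T12h, and 2.56 and 1.35 in T48h. KO and T12h were at one level, with log2 fold changes of -3.01 ± 0.29 and -3.04 ± 0.29, and T48h was lower (-4.30 ± 0.32). Rspo2, a secreted enhancer of WNT signalling, fell from 10.8 and 7.24 CPM to 0.327 and 0.049 in T48h, 0.337 and 0 in KO, and 2.02 and 0.837 in T12h, and its call was lost by DESeq2 and without any one of the WT or T12h libraries. Another ligand, Wnt7b, had 40.1 and 34.6 CPM in WT and 12.4 and 14.9 in T12h (-1.45 ± 0.16). Edn1, the vasoactive peptide endothelin, was the lower gene nearest the 2-fold threshold (smallest shift -1.01), and Wfikkn1, a secreted protease inhibitor, lay just outside it (-0.99).

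Among receptors and neuronal genes, Dcc, the netrin receptor that steers axons, fell from 19.3 and 17 CPM in WT to 1.26 and 0.728 in KO, 3.79 and 4.21 in T12h, and 0.409 and 0.441 in T48h. The T12h shift was -2.18 ± 0.26 (edgeR adjusted p = 0.000149). Rmst, a long noncoding RNA of neural progenitors, had 883 counts over the WT libraries (13.1 and 12.2 CPM), 3 in KO and 0 in T48h. WT exceeded KO by a ratio of 445 (counting interval 152 to 2160) and T48h at least 327-fold. In T12h Rmst stood at 3.07 and 1.94 CPM, still -2.33 ± 0.33 from WT. Dnahc10, an axonemal dynein heavy chain of motile cilia, went the other way among clone groups: WT had 16.6 and 15.6 CPM, KO 1.46 and 1.65, T12h 0.074 and 0.22, and T48h 0.191 and 0.049. T12h and T48h lay under KO for this gene (log2 fold changes from WT of -3.38 in KO, -6.79 in T12h and -7.08 in T48h).

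Zfp503, a zinc finger corepressor, was the 1 of 294 considered Zfp genes called lower in all 3, where 1.05% of all tested loci were. It stood at 103 and 94.5 CPM in WT, 2.69 and 2.46 in KO, 43.3 and 40.7 in T12h, and 23.9 and 22.3 in T48h. Eras, an X-linked Ras protein of embryonic stem cells, fell from 11.2 and 11 CPM to 1.58 and 3.83 in KO, 4 and 2.25 in T12h, and 0.109 and 0.515 in T48h, and lost its call in 5 of 21 alternatives, among them those without either WT library or T12h b. Rbmx, an X-linked RNA-binding protein, had the highest CPM of the lower genes in WT, at 164 and 149 CPM. It stood at 32.9 and 30 in KO, 66.3 and 64.2 in T12h, and 61.4 and 62.8 in T48h, so that T12h and T48h were alike (-1.26 and -1.33) and KO lower (-2.31).

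Receptors of blood vessel endothelium were among the higher genes. Tek, the receptor for angiopoietins, had 2.75 and 2.4 CPM in WT, 5.9 and 5.68 in T12h, 54.5 and 54.7 in KO, and 195 and 170 in T48h. Its log2 fold changes were 4.40 ± 0.12 in KO, 1.17 ± 0.13 in T12h and 6.14 ± 0.13 in T48h (edgeR adjusted p = 1.18e-11, 9.78e-05 and 6.92e-13). Tie1, its partner receptor, had 2 counts over the WT libraries, 60 in KO, 61 in T12h and 3608 in T48h, ratios of 19.9 (5.26 to 168), 21.4 (5.67 to 181) and 1620 (449 to 13400) with counting intervals. Flt1, a VEGF receptor, rose from 23.6 and 18.8 CPM in WT to 35.3 and 52.8 in T12h, 139 and 128 in KO, and 78.2 and 85.7 in T48h.

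Of 17 considered endothelial and blood genes, the 3 above were higher in all 3 comparisons, against 1.32% of all tested loci. In T12h 7 were higher and 5 lower, against 5.34% and 6.38%. Pecam1, an adhesion molecule of endothelium, fell in T12h (5.13 and 5.31 CPM in WT, 1.41 and 1.92 in T12h, log2 fold change -1.66), and Kdr, the main VEGF receptor, fell in KO (-5.36). The 18 tested loci of the list, 1 of them on chromosome 8, summed to 128 to 136 CPM in WT, 202 to 206 in T12h, 313 to 336 in KO, and 1041 to 1050 in T48h. None of the genes Pecam1, Cdh5, Kdr and Tal1 was at 0 in any library, and the part of a changed number of endothelial cells in these shifts was not tested. Aplnr, the apelin receptor, and Pcdh12, a protocadherin of endothelium, were also shared 2-fold genes, with T12h shifts of 1.29 ± 0.40 and 1.34 ± 0.41 at about 1 CPM or less in both WT and T12h.

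Of the remaining higher genes, Vnn1, a pantetheinase anchored to the cell surface, had the largest KO shift. It went from 1.97 and 1.63 CPM in WT to 128 and 139 in KO, 5.28 and 5.27 in T12h, and 9.8 and 8.33 in T48h (6.21 ± 0.15, 1.55 ± 0.16 and 2.33 ± 0.16). Msx2, a homeobox gene induced by BMP signals, went from 4.69 and 3.83 to 29.1 and 33.2 in KO, 9.11 and 12.3 in T12h, and 198 and 184 in T48h. Frem1, a basement membrane protein, had 3.3 and 3.06 in WT, 19 and 20.2 in KO, 6.27 and 7.36 in T12h, and 75.6 and 83.7 in T48h. For Msx2 and Frem1 the order was WT, T12h, KO, T48h, with no overlap between neighbouring groups, and the T12h shifts were 1.32 ± 0.16 and 1.10 ± 0.15. The gene with the lowest shift inside the 2-fold limit was S100g, a calcium-binding protein (1.03 in T48h and 1.04 in T12h). Its KO shift was large, at 6.07, with 118 and 120 CPM in KO against 1.14 and 2.43 in WT. The locus of S100g is given on the X from 162407200 to 163352564. Bmp2, a BMP ligand, lay just outside the 2-fold limit (0.98).

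The other 6 higher members had T12h shifts from 1.14 to 3.22. They were Mybpc3, a myosin-binding protein of heart muscle (5.57 in KO, 2.74 in T12h and 5.24 in T48h), Nkx2-9, a homeobox gene of the ventral neural tube (5.16, 3.22 and 1.90), Spon2, a matrix protein (4.21, 1.43 and 2.31), Itga8, an integrin subunit, Cacna1e, a voltage-gated calcium channel, and the joined locus of Cd55 and Daf2, complement regulators of the cell surface. The remaining 17 lower members had T12h shifts from -3.23 (Barhl2, a homeobox gene of the diencephalon) to -1.03 (Rnf152, a ubiquitin ligase). Among them were genes of neurons, namely Kcna1, a potassium channel, Gabrb2, a GABA receptor subunit, Syt7, a synaptotagmin, Rtn4rl2, a Nogo receptor homologue, and Ntrk3, the neurotrophin-3 receptor. The same group held Rfx4, a winged-helix factor of neural progenitors, Esx1, an X-linked homeobox gene, Amer2, a WNT pathway regulator, Pcdh17, a protocadherin, Rbm11, Filip1, Emilin3, 1700048O20Rik and 2510009E07Rik. Trpm1, a cation channel of retina and melanocytes, was shifted least in KO (-1.09), more in T12h (-2.17) and most in T48h (-7.77), where 1 library had 0 counts.

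Smaller shared shifts involved 301 loci, 182 higher and 119 lower, with median smallest shifts of 0.39 and 0.49 log2 units. Within 0.5 log2 units of each other across KO, T12h and T48h were 54 of the higher and 25 of the lower. Akt2, a kinase of insulin signalling, rose by nearly the same amount in each group: 37.8 and 39 CPM in WT, 51.4 and 58.1 in KO, 56.5 and 54.3 in T12h, and 54.1 and 55.4 in T48h (0.51, 0.53 and 0.51). Myc, the growth-promoting transcription factor, fell from 55.8 and 48.4 CPM to 23.6 in both KO libraries, 30.1 and 32.7 in T12h, and 27.2 and 27.6 in T48h (-1.14, -0.73 and -0.93). Pim1, a kinase gene, fell to a like extent (-1.55, -0.97 and -1.06).

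Endoderm markers held the most shared calls of any list in the higher direction. Of 20 considered genes, 6 were higher in all 3 comparisons, against 1.32% of all tested loci, and none by 2-fold in each: Ttr, Hnf4a, Gata4, Gata6, Dab2 and Sox17. Ttr, a thyroxine carrier of visceral endoderm and choroid plexus, rose by 1.20 in KO, 1.02 in T12h and 0.79 in T48h. Hnf4a, a nuclear receptor of liver and visceral endoderm, rose by 1.75, 0.75 and 0.85. For Gata4 and Gata6, which heart mesoderm also uses, T12h shifts were 0.52 and 0.42 beside KO shifts of 1.84 and 2.35. The medians of the list were 1.75, 0.41 and 0.65, against -0.02, -0.02 and -0.06 over all tested loci. Its 20 loci summed to 3917 and 3998 CPM in WT, 5194 and 5735 in T12h, 13390 and 13810 in KO, and 2966 and 3159 in T48h, so in T48h the sum was below WT although the 6 genes were above it.

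Other lists had few calls or none common to the 3 groups. Of all 15278 tested loci, 362 were called in all 3 by edgeR, 724 at an unadjusted p under 0.05 and 441 by DESeq2. At those shares lists of this length would hold few such calls or none, so a 0 says little about them. Canonical histone genes had 0 calls of 53 in all 3 comparisons by edgeR, 2 at an unadjusted p under 0.05 and 1 by DESeq2. Germline genes had 0 of 35 by edgeR, 0 at an unadjusted p under 0.05 and 0 by DESeq2, and the same 3 counts were 0 for the 19 clustered protocadherins and the 14 naive pluripotency genes. Polycomb subunits had 0 of 29 by edgeR, 2 unadjusted and 1 by DESeq2. In KO taken alone, 26 of 35 germline genes were higher, against 30.6% of all tested loci, and 35 of 53 histone genes lower, against 33.2%. Of the COMPASS/MLL subunits and partners, Setd1b was higher (0.74, 0.28 and 0.30) and Psip1 lower (-1.06, -0.29 and -0.50) in all 3. They were 2 of 15 considered, where 1.32% of all tested loci were higher and 1.05% lower in all 3.

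**Figure D3:**
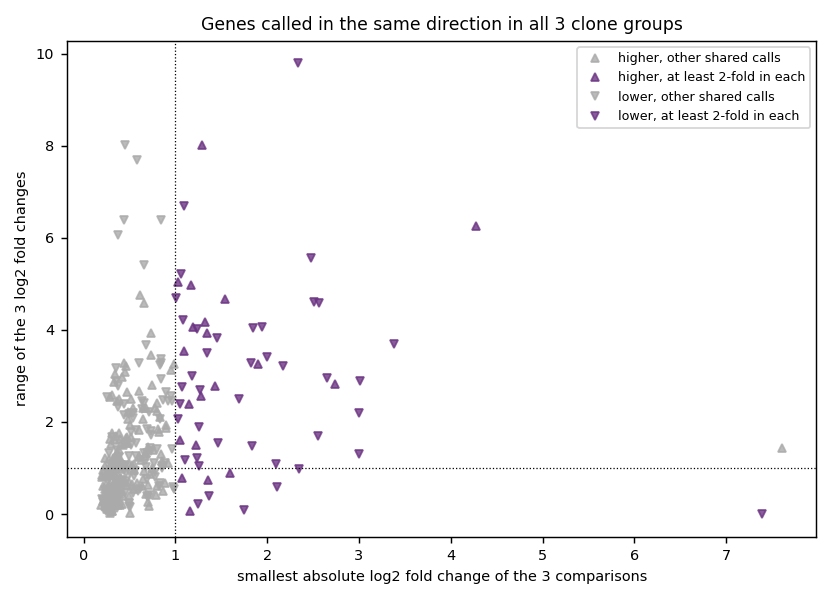
Each gene called in the same direction in all 3 comparisons, by the smallest absolute log2 fold change of the 3 (horizontal axis) and the range of the 3 (vertical axis); triangles pointing up are higher and those pointing down lower than WT, purple the 61 shared 2-fold genes and grey the other calls. The lower right field, a large shift with a small range, holds 10 purple genes, with Fam221b at the far right.

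Shared calls were spread over the genome. No chromosome held more than 5 shared 2-fold genes, the number on chromosome 19, all of them lower, and on chromosome 4, chromosome 5, chromosome 2 and the X. No run of 3 or more adjacent tested loci was shared at 2-fold. The median averaged shift lay between -0.088 and -0.003 on chromosomes other than 8 and Y. Chromosome 8 was left out of the counts of calls above, but its loci entered the fit and the summed CPM of the lists. On chromosome 8 the median log2 fold change of 852 loci was 0.49 in KO, 0.49 in T12h and 0.39 in T48h. On the Y chromosome, with 6 tested loci, the medians were -0.41 in KO, -0.20 in T12h and 0.004 in T48h. Of these loci none was called in all 3 comparisons by edgeR, at an unadjusted p under 0.05 or by DESeq2, and Eif2s3y, Uty and Ddx3y were present in every library.

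**Figure D4:**
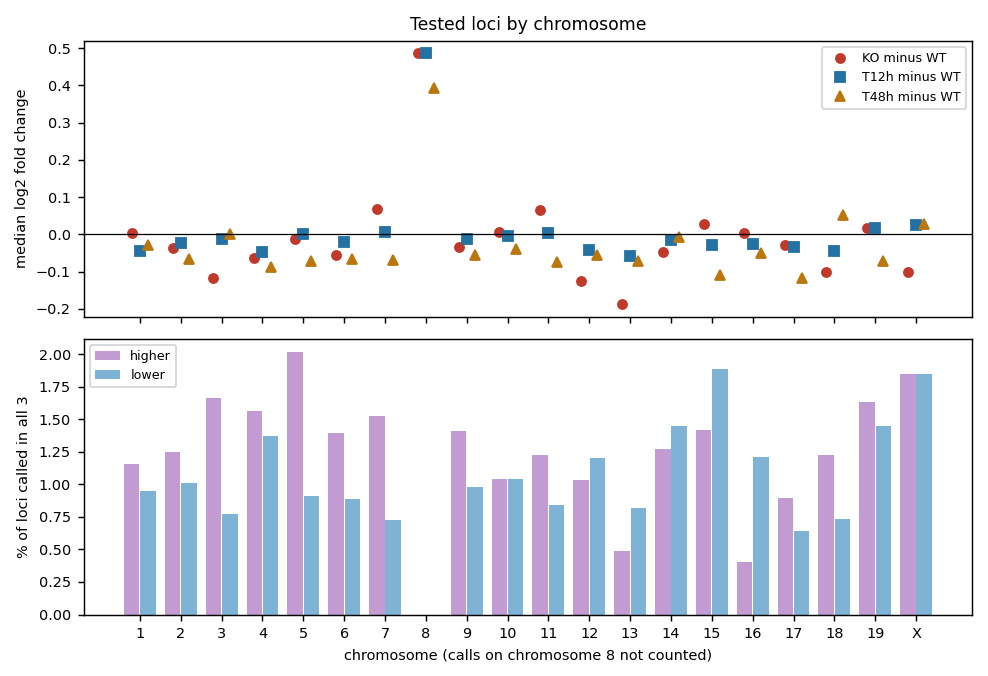
Top, median log2 fold change against WT of the tested loci of each chromosome but Y (circle KO, square T12h, triangle T48h); bottom, the share of tested loci called higher (purple) or lower (blue) in all 3 comparisons, in percent. Chromosome 8 stands at 0.39 to 0.49 in all 3 groups while the other chromosomes drawn lie between -0.19 and 0.07; its own calls were not counted.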

How the data were processed

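RNA was extracted with an RNeasy kit and DNase and sequenced from TruSeq libraries, per the labels' protocols. The submitters' processing notes list the build mm10 with Cufflinks 2.2.1, TopHat2 2.1.1, deepTools and SAMtools 1.5. No source used here gives the annotation, or whether counting used the strand. The deposited tables list 28432 loci, with estimated counts and FPKM per the file headers. The deposited estimated counts carried 1 factor per column (1 fragment was worth 0.63 to 1.29), which was divided out. After this 90.9% to 92% of nonzero values were whole within 0.02. Columns carry the group and a number from 1 to 4 whose meaning is not given, so technical partners were found by a chi-square of their counts (1.61 to 1.83 per degree of freedom within pairs, 10.7 to 17.5 between) and summed, and the sums rounded. Left out were 5143 loci with no gene name (3.04% to 3.4% of counts) and 8 loci set to 0 for too many fragments, and the 112 columns of variances, bounds and status flags entered no test (the flags marked the 8 loci).

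The 4 groups were fitted together in edgeR 4.0.16 (R 4.3.3; TMM, filterByExpr, quasi-likelihood F-test, 4 residual degrees of freedom, Benjamini-Hochberg over 16130 loci). The script was tested on simulated data. Alternatives used DESeq2 1.42.0, limma 3.58.1 on log2(FPKM + 1) or log2(FPKM + 0.1) of the authors' FPKM, other scalings, filters and thresholds, and fits without each library. Named by rule were Wdr5, up to 15 genes per direction with the largest smallest shift and up to 10 even genes, both at 5 CPM or more and without Gm or Rik models or joined symbols, and up to 4 shared 2-fold members of each list at 1 CPM or more. Some genes that the rule takes are left out of the text. Scnn1a, 1700113A16Rik, Fam221b, Emx2os, Tie1, Aplnr, Pcdh12, S100g, Bmp2, Wnt7b, Edn1, Wfikkn1, Rbmx, Akt2, Myc, Pim1 and all other genes named outside this rule were chosen after their values were seen. Members and the 34 gene lists were chosen with earlier results of these data known. Promoters are those of RefSeq on GRCm38.p6, the assembly that mm10 holds.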

Additional observations from a re-analysis of the deposited data

Results flagged for a closer look

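Shifts of different size among the clone groups drew attention to 20 of the named genes, which shared a direction against WT and yet differed among KO, T12h and T48h by the F test of edgeR. The ranges of the 3 log2 fold changes, with the adjusted p of that test, were as follows. Among the higher genes edgeR gave a range of Peg13 0.75 (adjusted p = 8.47e-05), Peg10 1.497 (adjusted p = 9.68e-10), Flt1 1.601 (adjusted p = 2.48e-06), Frem1 3.55 (adjusted p = 1.59e-10), Msx2 4.17 (adjusted p = 2.73e-11), Vnn1 4.66 (adjusted p = 2.41e-12) and Tek 4.97 (adjusted p = 1.49e-12). Among the lower genes with narrower ranges it gave Nes 1.21 (adjusted p = 0.000249), Wnt8b 1.298 (adjusted p = 0.00341), Emx2 1.69 (adjusted p = 0.000306), Dmrta1 2.201 (adjusted p = 0.000198), Rspo2 2.95 (adjusted p = 0.00495), Dcc 3.22 (adjusted p = 1.45e-06), Eras 3.29 (adjusted p = 0.00051) and Dmrt3 3.40 (adjusted p = 2.81e-07). The widest ranges of lower genes were Dnahc10 3.70 (adjusted p = 8.4e-06), Zfp503 4.02 (adjusted p = 3.07e-11), Otx1 4.03 (adjusted p = 3.29e-07), Zic1 4.61 (adjusted p = 6.84e-08) and Rmst 9.79 (adjusted p = 8.17e-08). Rmst had 0 counts in T48h, so its fitted range depends on the prior count.

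Loci without a gene name were outside the report. Fitted with the named loci in edgeR, 3781 of them were tested outside chromosome 8, and 2 were higher and 3 lower in all 3 comparisons, at least 2-fold and apart from both WT libraries. The most even of them, on chromosome 7 from 132938967 to 132940119 on mm10, stood at 0.295 and 0.284 CPM in WT, 2.24 and 2.25 in KO, 2.06 and 1.46 in T12h, and 2.31 and 2.61 in T48h, with log2 fold changes of 2.94, 2.59 and 3.07. On chromosome 3, lower loci at 88227393 to 88228394 and 88228494 to 88229950 adjoin each other; the first had log2 fold changes of -2.74, -2.49 and -5.55 and the second -7.29, -1.80 and -10.28, the last of these with 0 counts in T48h. The lower locus on chromosome 10 had log2 fold changes of -1.84, -2.90 and -3.23.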

How the results depend on the processing

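The columns are numbered 1 to 4 in each group, and what the numbers mean is not given. A replicate block of columns 1 and 2 against 3 and 4, added after seeing the data, gave 176 shared calls higher and 137 lower, 18 and 38 shared 2-fold genes, and 4 and 3 even genes. The numbers were not taken to pair the libraries: the differences between a and b correlated at -0.089 to 0.113 between groups over 16130 loci. Leaving out 1 library at a time gave 1728 to 2632 loci higher and 2454 to 3980 lower by the averaged contrast, 75 to 192 and 66 to 194 called in all 3 comparisons, 14 to 25 and 23 to 56 shared 2-fold genes, and 1 to 5 and 2 to 10 even genes. Treating the 6 clone libraries as 1 group gave 0 higher and 0 lower in edgeR, and 113 and 43 in DESeq2, the latter chosen after seeing the data. Upper-quartile scaling, which set the median T48h shift at -0.16, gave 132 shared calls higher and 220 lower, and 3 and 9 even genes. It also moved the averaged contrast to 2358 higher and 4162 lower. On log2(FPKM + 1), limma gave 134 shared calls higher and 204 lower, 2 and 26 shared 2-fold genes, and 1 and 17 even genes; on log2(FPKM + 0.1), 22 even lower genes. A fold limit of 1.5 gave 63 and 87 shared 2-fold genes, 16 and 19 even; a limit of 3 gave 4 and 22, with 1 even higher gene. Even within 0.5 left 1 higher gene, the second technical column alone gave 2 even higher genes, and keeping unnamed loci gave 3 even lower genes. The causes were not tested.

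None of the 25 named genes reported reversed in 21 alternatives each. Calls were lost for Pou3f3 in 7, Eras and Rspo2 in 5, Rpl24 in 4, Crlf2 in 3, and Ace and Frem1 in 1 (largest adjusted p over the alternatives 0.286, 0.228, 0.255, 0.287, 0.113, 0.0729 and 0.081). With 2 libraries per group and T12h close to WT, shared shifts under 1 log2 unit at a few CPM are the least certain.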
